A study of Mus musculus with 6 samples.

Results

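The genes described here encode the meiotic chromosome axis and the synaptonemal complex: Sycp1, Sycp2, Sycp3, Syce1, Syce2, Hormad1, Hormad2, Rec8, Smc1b and Stag3. They were found by symbol in a table of normalised gene values, and all 10 were present among the 16862 genes listed. RNA had been sequenced from gonads of male C57BL/6 mouse embryos at E13.5, a stage counted in days after conception. Wild-type embryos were compared with embryos lacking both prostaglandin D synthases (L/H-Pgds-/-), the enzymes L-Pgds and H-Pgds that make prostaglandin D2. Each genotype had 3 libraries, named here WT1, WT3 and WT4 for wild type and KO5, KO7 and KO8 for knockout. The labels describe 6 different littermates, give no transgene, batch or pairing, and do not say whether a library pooled gonads or how the genes were disrupted, so p-values measure the spread between these libraries.

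During meiotic prophase, each replicated chromosome is folded into loops along a protein axis. Meiotic cohesins, in which Rec8, Smc1b and Stag3 take the places of mitotic subunits, hold the sister chromatids and form the base of that axis. Sycp2 and Sycp3 build the axial element on it, and the HORMA-domain proteins Hormad1 and Hormad2 mark it where homologs are not yet joined. Sycp1 then bridges the paired axes as the transverse filament, held together in the middle by central element proteins such as Syce1 and Syce2. In the mouse, germ cells of the fetal ovary enter meiosis before birth, whereas those of the fetal testis stop dividing and enter it only after birth. Many of these genes are nevertheless transcribed in fetal germ cells of both sexes.

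The upstream sequences of 6 of the genes are shown. They are the 4 that passed the test for a difference between genotypes (Hormad1, Rec8, Smc1b and Stag3), with Sycp1 and Sycp3. Values of Sycp1, Sycp2 and Sycp3 all varied strongly among libraries, and the sequence of Sycp2 is not shown. Each sequence shown is the 250 bases before the annotated start site, 5′ to 3′, from RefSeq on GRCm38.p6. Coordinates of these sequences are on that build and cannot be set beside the mm9 coordinates given further on. Capitals mark matches on either strand to the 4 motifs described after them, which were chosen after the sequences had been read.
Sycp1, chr3:102936101-102936350, minus strand: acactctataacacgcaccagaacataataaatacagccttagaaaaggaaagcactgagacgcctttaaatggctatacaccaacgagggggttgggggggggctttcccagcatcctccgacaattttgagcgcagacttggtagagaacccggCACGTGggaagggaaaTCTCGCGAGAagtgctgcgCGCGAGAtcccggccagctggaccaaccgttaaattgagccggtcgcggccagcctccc
Sycp3, chr10:88459337-88459586, plus strand: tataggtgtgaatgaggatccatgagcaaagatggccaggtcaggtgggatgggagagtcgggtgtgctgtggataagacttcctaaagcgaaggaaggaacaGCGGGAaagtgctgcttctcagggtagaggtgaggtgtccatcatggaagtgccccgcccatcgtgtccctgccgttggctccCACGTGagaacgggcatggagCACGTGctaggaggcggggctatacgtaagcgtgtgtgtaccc
Hormad1, chr3:95559427-95559676, plus strand: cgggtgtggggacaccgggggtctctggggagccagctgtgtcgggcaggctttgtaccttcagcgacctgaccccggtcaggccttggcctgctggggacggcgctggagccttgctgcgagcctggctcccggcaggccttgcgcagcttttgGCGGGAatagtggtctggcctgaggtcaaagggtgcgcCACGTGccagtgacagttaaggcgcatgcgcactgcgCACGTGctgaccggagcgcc
Rec8, chr14:55617916-55618165, plus strand: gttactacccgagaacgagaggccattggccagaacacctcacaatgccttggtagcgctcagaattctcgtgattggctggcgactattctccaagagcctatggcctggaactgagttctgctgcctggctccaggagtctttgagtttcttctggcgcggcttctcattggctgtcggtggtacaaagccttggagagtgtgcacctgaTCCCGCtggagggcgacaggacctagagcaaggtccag
Smc1b, chr15:85131958-85132207, minus strand: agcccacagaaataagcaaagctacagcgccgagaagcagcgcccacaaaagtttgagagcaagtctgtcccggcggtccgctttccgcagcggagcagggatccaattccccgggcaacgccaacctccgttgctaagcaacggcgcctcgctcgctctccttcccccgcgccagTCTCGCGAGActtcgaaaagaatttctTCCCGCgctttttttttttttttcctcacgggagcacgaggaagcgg
Stag3, chr5:138280259-138280508, plus strand: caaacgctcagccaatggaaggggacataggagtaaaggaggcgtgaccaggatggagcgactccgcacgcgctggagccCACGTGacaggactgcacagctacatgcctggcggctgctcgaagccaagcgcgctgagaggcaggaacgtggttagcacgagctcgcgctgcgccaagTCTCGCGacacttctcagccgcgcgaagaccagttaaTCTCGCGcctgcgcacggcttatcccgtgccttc

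The first motif, CACGTG, is the palindromic E-box bound by Max with partners such as Mga. It was present in 5 of the 10 genes (Hormad1, Stag3, Syce2, Sycp1 and Sycp3), with 2 matches each in Hormad1 and Sycp3, against 6.86% of 27025 genes with such a window. In Sycp3 the 2 matches began 64 and 43 bases before the start site. The second, TCCCGC, is the core of sites bound by E2F factors, and was present in 5 genes (Hormad1, Rec8, Smc1b, Syce2 and Sycp3), against 18.8%. TCTCGCG, part of a palindrome bound by the factor Banp, was present in Smc1b, Stag3 and Sycp1, against 2.42%, with overlapping matches on both strands in Smc1b and Sycp1. CNCCTCAG, the motif reported for the meiotic initiators Stra8 and Meiosin, was present in Hormad2 and Syce2, against 7.39%. In Syce2 the matches to CNCCTCAG and TCCCGC shared bases, and its matches to CACGTG and CNCCTCAG lay before the second of its annotated start sites. All 10 genes had a window, and Sycp2 and Syce1 had no match to these letters in it. The count of CpG dinucleotides was 26 in Stag3, 25 in Smc1b, 19 in Hormad1, 17 in Sycp1, 12 in Sycp3 and 10 in Rec8, against a median of 6 over 32851 windows. Among genes whose sequence is not shown, it was 7 in Sycp2, 10 in Hormad2, 13 in Syce1, and 11 or 24 in Syce2, depending on the start site. These matches are descriptions of sequence, and binding was not measured.

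Ptgds, which encodes L-Pgds, stood at 6560 to 8712 in wild type and 2.94 to 15.2 in knockout. Hpgds, which encodes H-Pgds, stood at 45 to 55 in wild type and 87.3 to 104 in knockout. Since the deleted part is not given, the Hpgds value neither checks nor contradicts that label. Values summed to between 21657342 and 23734462 per library, which follows from the normalisation and is not a depth. A gene was tested where 3 or more libraries held 10 or more, which left 15116, and of these 34.3% passed the test at an adjusted p of 0.05 (limma's moderated test on log2(value + 1), Benjamini-Hochberg adjustment over all genes tested), 17.3% higher and 17.0% lower in knockout. With values scaled to equal totals the split was 3511 higher and 1690 lower, against 2609 and 2571, and without WT4 it was 1635 and 1397. With each library's trend on transcript length and GC content taken out, 12.7% passed (6.07% higher, 6.64% lower). WT1 stood apart from the other wild-type libraries in several cell type lists, with an endothelial and blood marker sum of 42483 against 91335 to 145462 in the other 5 libraries. The ovarian list (10 of 10 genes listed, none at 0) summed to 5129 to 5858 in wild type and 3631 to 3895 in knockout. Most of this sum came from Wnt4 (mean 3807 in wild type and 2183 in knockout) and Rspo1 (1059 and 723). In limma's test these 2 were lower and 1, Lgr5, was higher (216 and 357), against 17.0% and 17.3% of all genes. The list's defining marker Foxl2 stood at 12.3 to 29.9. Xist, which is abundant in female cells, stood at 3.97 to 12.7 in 4 libraries, 58.9 in KO7 and 51.3 in KO8.

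All 10 axis and synaptonemal complex genes passed the filter on low values. In limma's test 3 rose in knockout (Hormad1, Smc1b and Stag3) and 1 fell (Rec8), or 4 of 10, a share near the 34.3% of all genes tested. Wild-type and knockout values were fully separated for 5 of the 10 genes (3 higher and 2 lower in knockout), against 50.3% of all genes tested. In whole gonads, fewer germ cells and less RNA per germ cell cannot be told apart. The median log2 change of the 10 genes was 0.31, against -0.03 over all genes tested. With the trend in length and GC taken out the median was 0.14 against -0.01, and 1 gene, Hormad1, passed, against 12.7% of all genes. The calls depended on the prior of the test and on single libraries. With a prior that does not depend on the mean, Hormad1, Smc1b and Stag3 did not pass (limma adjusted p = 0.0895, 0.0997 and 0.0675) and Rec8 did (0.0462). Without WT1, 5 were higher and 2 (Rec8 and Syce2) lower, against 29.8% of all genes in either direction. Without KO7, 0 were higher and 1 (Syce2) lower in limma's test, against 28.1%. With both left out, a choice made after the data were seen, 5 were higher (Sycp1 and Sycp2 among them) and 1 (Syce2) lower, against 29.5%. Leaving out WT3 or WT4 gave 0 higher and 1 lower, and leaving out KO5 gave 2 higher and 0 lower. The smallest p that an exact permutation test can give for a single gene here is 0.1.

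**Figure D1:**
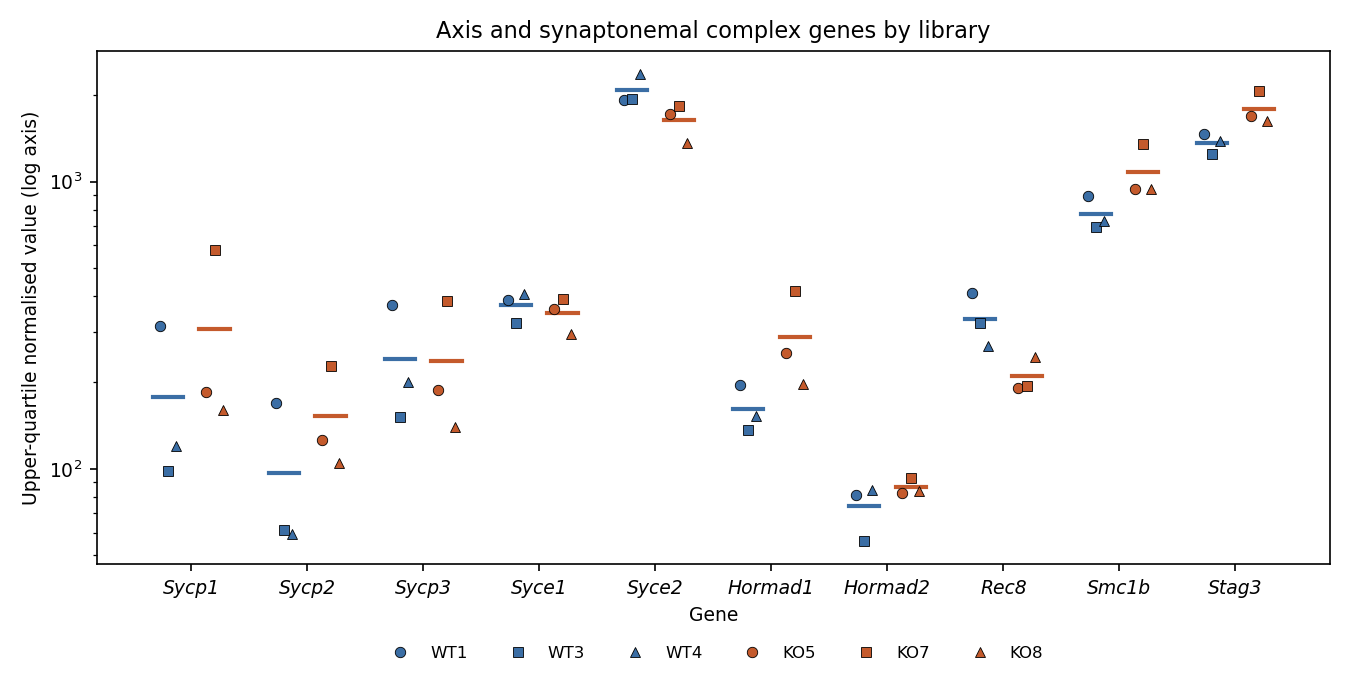
Normalised value (log axis) of each gene in each library, wild type in blue and knockout in orange, with a bar at each group's mean (n = 3). Sycp1, Sycp2 and Sycp3 are highest in WT1 and KO7 within their groups, and the groups do not overlap for Syce2, Hormad1, Rec8, Smc1b and Stag3.

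Levels between genes were compared as normalised value per kb of transcript. Syce2 had the highest level, 1233 ± 150 (SD, n = 3 here and below) in wild type and 973 ± 144 in knockout. Stag3 came next at 325 ± 26.9 and 427 ± 57.8. Both were apart from the gene below them in every library. Syce1 (255 ± 30.5), Sycp3 (206 ± 99.4), Smc1b (191 ± 26.4), Rec8 (153 ± 33.1) and Hormad1 (107 ± 20.5) followed in wild type. In this order, the range of each over the libraries overlapped that of its neighbour. The lowest levels in wild type were those of Sycp1 (51.6 ± 34.6), Hormad2 (37.6 ± 7.91) and Sycp2 (16.9 ± 11.1), again with overlapping ranges. Within each wild-type library, however, Smc1b was above Rec8, Rec8 above Hormad1, Hormad1 above Sycp1, and Hormad2 above Sycp2. In knockout Hormad1 (191 ± 74.9) stood above Rec8 (96.3 ± 14.0) with no overlap, the opposite of their order within each wild-type library.

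Among the proteins that bridge the homologs, the transverse filament gene Sycp1 (NCBI gene 20957, chromosome 3, 102622422 to 102740023, mm9) was the most variable. It held 314, 98.1 and 120 in WT1, WT3 and WT4 and 186, 576 and 160 in KO5, KO7 and KO8. KO7 was the highest library and WT1 the second, and the groups overlapped. The log2 change was 0.74 (SE 0.50, limma adjusted p = 0.28). Without WT1 it was 1.24 (adjusted p = 0.0255), without KO7 it was 0.16 (0.807), and with both left out it was 0.67 (0.0234). With the trend in length and GC taken out it was 0.26 (0.749).

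The central element genes were steadier. Syce2 (gene 71846, chromosome 8, 87396010 to 87411345) held 1921, 1943 and 2370 in WT1, WT3 and WT4 and 1719, 1835 and 1369 in KO5, KO7 and KO8. Every knockout library was below every wild-type library, yet the change just missed the threshold (log2 -0.34, SE 0.13, limma adjusted p = 0.0582). It passed without WT1 (0.0433) or without KO7 (0.036), and was -0.14 (0.462) with the length and GC trend removed. The span of Syce2 overlaps that of Gcdh in the table, and whether counting used strand is not given in the sources used here, so reads in the shared part are uncertain. Syce1 (gene 74075, chromosome 7, 147963128 to 147973753) held 388, 323 and 408 in the wild-type libraries and 361, 391 and 294 in the knockout libraries. Its groups overlapped (log2 -0.10, SE 0.15, adjusted p = 0.631), and the sign of its change turned with scaling to equal totals (0.0026) and with the trend taken out (0.16).

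Of the axial element genes, Sycp2 (gene 320558, chromosome 2, 178080001 to 178142363) held 170, 61.3 and 59.1 in WT1, WT3 and WT4 and 126, 229 and 105 in KO5, KO7 and KO8. All knockout libraries exceeded WT3 and WT4, and WT1 exceeded KO5 and KO8. The log2 change was 0.76 (SE 0.41, limma adjusted p = 0.174), and it was 1.25 (0.00547) without WT1. With the length and GC trend removed it was 0.12 (0.868), and Sycp2 had the longest transcript of the 10 genes (5717 nt, 36.4% GC). Sycp3 (gene 20962, chromosome 10, 87922332 to 87935981), the most widely used marker of the axis, held 372, 152 and 200 in wild type and 188, 385 and 140 in knockout. WT1 and KO7 were about equal and far above the other 4 libraries. The log2 change was -0.05 (SE 0.38, adjusted p = 0.926), with leave-one-out values from -0.47 to 0.31. The span of Sycp3 overlaps that of Chpt1 in the table, which makes reads in the shared part uncertain.

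Hormad1 (gene 67981, chromosome 3, 95363599 to 95391593), which recruits the DNA break machinery to unsynapsed axes, rose 1.79-fold in knockout. It held 196, 136 and 153 in WT1, WT3 and WT4 and 254, 415 and 197 in KO5, KO7 and KO8. The groups did not overlap, but WT1 and KO8 differed by less than 1 unit. The log2 change was 0.78 (SE 0.26, limma adjusted p = 0.0382), and 0.67 (SE 0.16, adjusted p = 0.0247) with the length and GC trend removed. Without KO7 it was 0.48 (0.119), and the call also ended without WT3, WT4 or KO5 (adjusted p = 0.101, 0.107 and 0.0782). Hormad2 (gene 75828, chromosome 11, 4246386 to 4341085), its relative with a role in surveillance of unsynapsed chromosomes, held 81.3, 56.2 and 84.7 in wild type and 82.7, 92.9 and 83.9 in knockout. Only WT3 stood apart, on the low side, and the groups overlapped (log2 0.24, SE 0.22, adjusted p = 0.416).

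Rec8 (gene 56739, chromosome 14, 56237003 to 56244232), the meiotic kleisin that closes the cohesin ring, fell 1.58-fold. It held 411, 322 and 268 in WT1, WT3 and WT4 and 191, 195 and 246 in KO5, KO7 and KO8. The groups did not overlap, and KO7, the highest knockout library for the other 9 genes, was not the highest here. The log2 change was -0.65 (SE 0.18, limma adjusted p = 0.0198). With the length and GC trend removed it was -0.31 (SE 0.17, 0.276), and Rec8 had the highest GC content of the 10 genes (56.7%). The call also ended without KO5 (0.0769) or without KO7 (0.059).

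The other cohesin genes moved the opposite way. Smc1b (gene 140557, chromosome 15, 84895119 to 84962387), the meiotic form of the Smc1 subunit, rose 1.40-fold. It held 895, 695 and 731 in WT1, WT3 and WT4 and 941, 1354 and 945 in KO5, KO7 and KO8, so that WT1 lay close below the lowest knockout library. The log2 change was 0.47 (SE 0.15, limma adjusted p = 0.0398), but 0.04 (0.876) with the length and GC trend removed and 0.29 (0.106) without KO7. The call ended also without WT3 (0.107) or WT4 (0.122). Stag3 (gene 50878, chromosome 5, 138721737 to 138753621), the meiotic form of the accessory Stag subunit, rose 1.31-fold. It held 1469, 1246 and 1390 in wild type and 1689, 2076 and 1627 in knockout, with the groups apart. Its log2 change was 0.39 (SE 0.11, adjusted p = 0.0233), against 0.21 (0.254) with the trend removed and 0.28 (0.0562) without KO7. Its call ended also without WT3 (0.071) or WT4 (0.065).

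**Figure D2:**
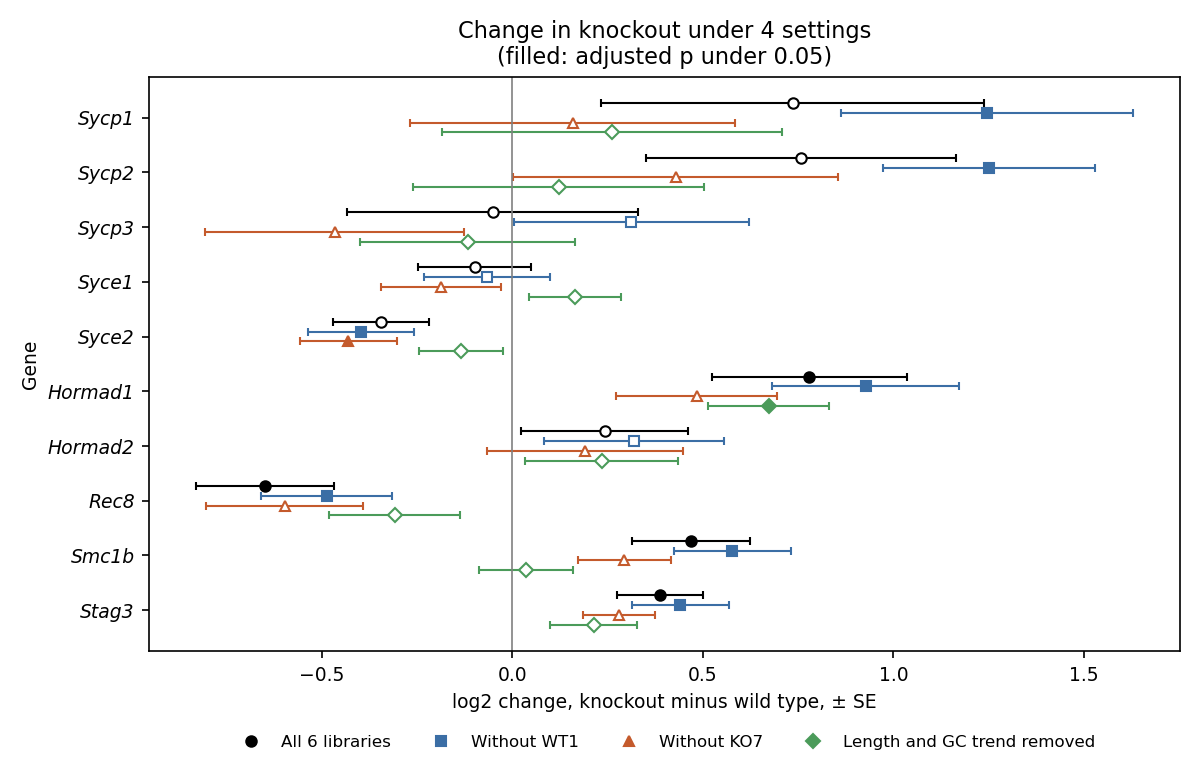
Change of each gene in knockout against wild type (log2, with SE) with all libraries, without WT1, without KO7, and with the length and GC trend removed; filled symbols passed an adjusted p of 0.05. Hormad1 is filled in every setting except without KO7, and Sycp1 and Sycp2 are filled only without WT1.

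A library pattern ran through these genes in both groups. KO7 was the highest knockout library for 9 of the 10 genes, against 37.3% of all genes tested, and WT1 the highest wild-type library for 7, against 35.7%. KO7 exceeded the mean of KO5 and KO8 by at least 1.5-fold for 4 genes, at 3.33-fold for Sycp1, 2.35-fold for Sycp3, 1.98-fold for Sycp2 and 1.84-fold for Hormad1. The share of all genes that did so was 5.25%. These 4 genes had the lowest GC content of the 10 (34.3% to 36.4%), and Rec8 had the highest (56.7%). WT1 exceeded the mean of WT3 and WT4 by at least 1.5-fold for 3 genes, at 2.89-fold for Sycp1, 2.82-fold for Sycp2 and 2.12-fold for Sycp3, against 8.16% of all genes. The cohesin genes Smc1b and Stag3 and the central element genes Syce1 and Syce2 stayed within 1.44-fold in both comparisons.

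General germ cell markers moved with this pattern. Of 22 tested markers, WT1 was the highest wild-type library for 20 and KO7 the highest knockout library for 20. The sum of all 23 listed markers was 50520 in WT1 and 53278 in KO7, and 31397 to 39411 in the other 4 libraries. Dazl, an RNA-binding protein of germ cells, held 8217, 6133 and 7396 in WT1, WT3 and WT4 and 8502, 16154 and 7616 in KO5, KO7 and KO8. Ddx4, a germ cell helicase, held 3204, 2348 and 2575 in wild type and 3527, 4723 and 3149 in knockout. Pou5f1 did not follow in knockout, at 5366, 4024 and 4694 in wild type and 4047, 3701 and 3579 in knockout. The GC content was 37.0% for Dazl and 57.6% for Pou5f1. The parts of germ cell share and of GC content in these results were not tested.

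Set against the mean log2 value of the germ cell markers in the same library, Sycp1, Sycp2, Hormad1, Smc1b and Stag3 were higher in every knockout library than in every wild-type library. Over all genes tested, 7.82% were separated on this scale, 5.97% higher and 1.85% lower, against 50.3% before centring. Centring adds the markers' spread between libraries to genes that do not follow them. Shares of all genes on this scale are therefore no like background for the 10 genes. For Stag3 the gap was small, from 1.13 in WT3 to 1.14 in KO7. The differences were 0.87, 0.89, 0.91, 0.60 and 0.52 on the log2 scale (exact permutation p = 0.1 each, two-sided, the smallest this design allows). Sycp3 was nearly constant against the markers in wild type (-1.88 ± 0.024, SD, n = 3) and spread in knockout (-1.80 ± 0.49). For Rec8 the groups overlapped on this scale (difference -0.52, exact permutation p = 0.2). In limma's test with every library centred in this way, 0 of the 10 genes passed in either direction, against 0.781% of all genes, and 1 was higher and 0 lower at an unadjusted p of 0.05. The mean of the markers itself was lower in knockout by 0.13 on the log2 scale (exact permutation p = 0.8). It was highest in WT1 (10.4, against 9.16 to 9.88 in the other libraries), so WT1 was lowered most on this scale. The markers disagreed in WT1, from 0.65 (Kit) to 9.93 (Gtsf1) times the mean of WT3 and WT4, with a median of 1.77. Whether this scale corrects for germ cell share was not tested.

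**Figure D3:**
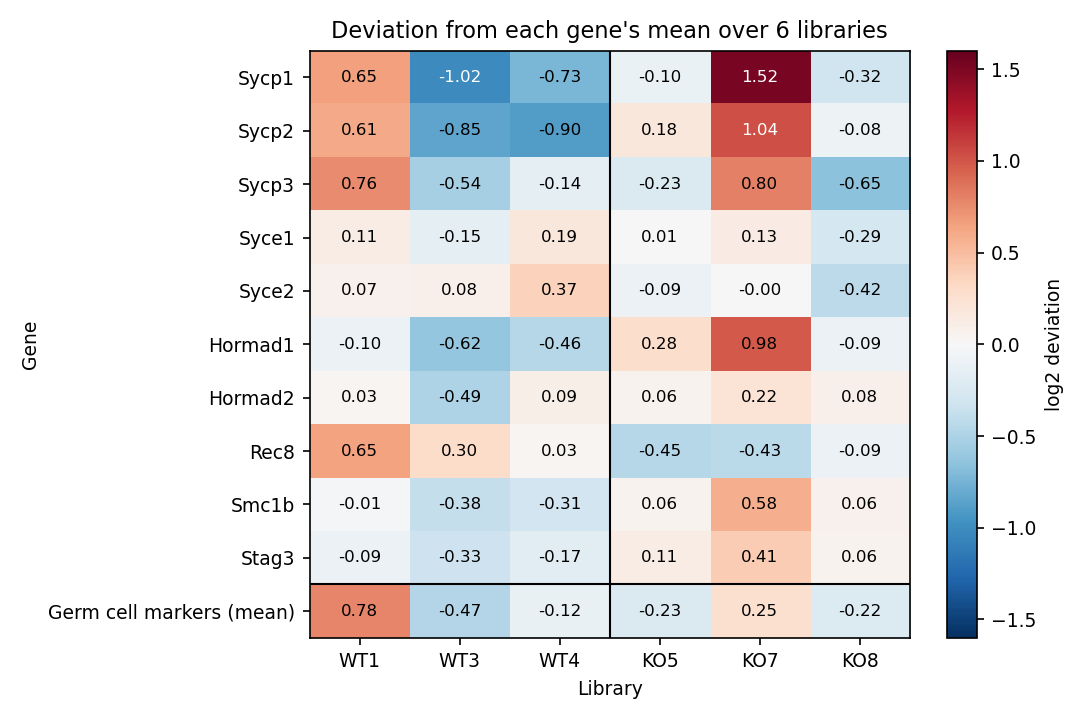
Deviation of log2(value + 1) from each gene's mean over the 6 libraries, with the mean of the germ cell markers in the bottom row. Sycp1, Sycp2 and Sycp3 are raised in WT1 (0.65, 0.61 and 0.76) and KO7 (1.52, 1.04 and 0.80), while Rec8 is lowered in KO5 and KO7 (-0.45 and -0.43).

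Meiotic subunits were then set beside the paralogs that serve in dividing cells, per kb of transcript. In wild type Rec8 reached 9.61% ± 2.26 of the level of the mitotic kleisin Rad21, and in knockout 4.12% ± 1.13 (SD, n = 3 each). The groups did not overlap, and the log2 ratio fell by 1.23 (exact permutation p = 0.1, the smallest possible). Rad21 itself rose from 6303 ± 365 to 9488 ± 1480 (log2 0.58, SE 0.11, limma adjusted p = 0.00453; 0.27, adjusted p = 0.0497, with the trend removed). The transcripts differ in GC content, at 56.7% for Rec8 and 44.3% for Rad21. With the trend removed, Rec8 changed by -0.31 (limma adjusted p = 0.276), against -0.65 before, and the ratio was not tested in that setting. Smc1b stood at 21.1% ± 3.22 of Smc1a in wild type and 27.9% ± 7.43 in knockout, with overlap (exact permutation p = 0.3). Smc1a, which works in both kinds of division, held 4251 ± 222 and 4514 ± 221 (adjusted p = 0.443).

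Stag3 lay below its mitotic paralog Stag2 in all 6 libraries on this scale, and below Stag1 in WT3 and the 3 knockout libraries. It stood at 76.8% ± 7.28 of Stag2 in wild type and 75.3% ± 1.63 in knockout, and at 105% ± 14.6 and 90.6% ± 1.36 of Stag1 (exact permutation p = 0.9 and 0.4). Stag1 rose 1.5-fold and Stag2 1.34-fold (limma adjusted p = 0.00323 and 0.0158). With the length and GC trend removed, Stag1 did not pass (log2 0.06, 0.631) and Stag2 was lower and past the threshold (-0.21, 0.0463). Hormad1 stood at 288% ± 46.3 of Hormad2 in wild type and 429% ± 140 in knockout, with overlap (exact permutation p = 0.3).

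**Figure D4:**
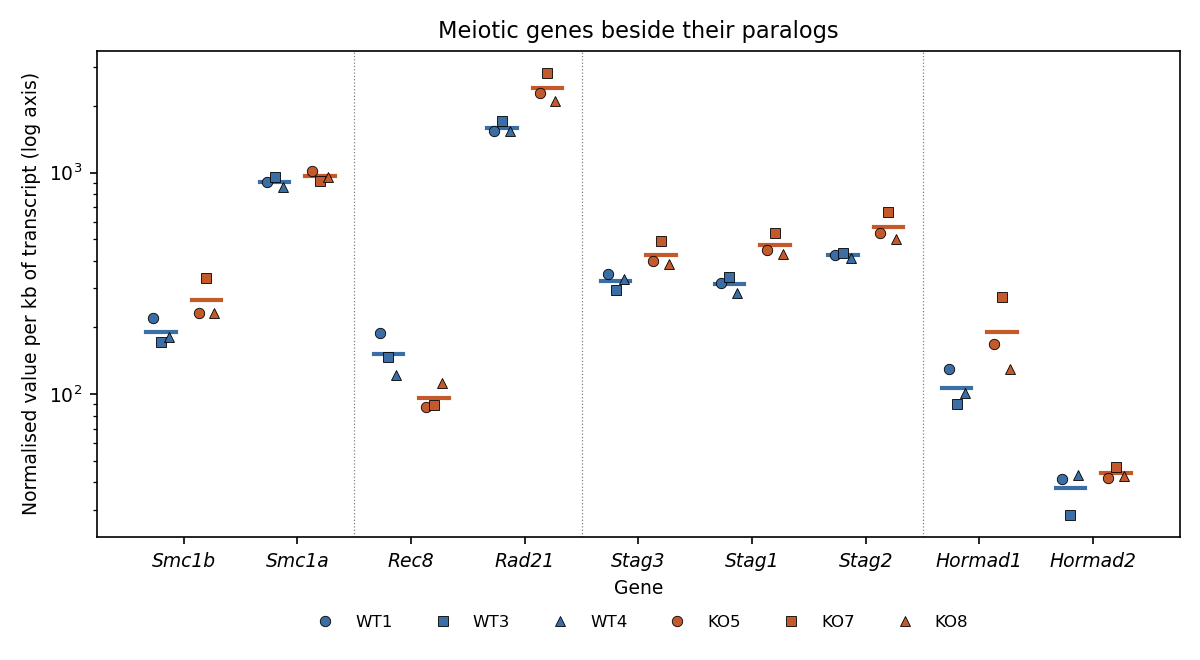
Normalised value per kb of transcript (log axis) of meiotic genes and their paralogs in each library, wild type in blue and knockout in orange, with bars at the group means (n = 3). Rec8 is lower and Rad21 higher in knockout, and Stag3 lies below Stag2 in all 6 libraries.

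Other genes of the axis, the synaptonemal complex and telomere attachment were counted next. Of 23 named, 16 were listed and 14 tested, and 1 rose (against 17.3% of all genes tested), Sun1, which links telomeres to the nuclear envelope (1540 ± 83.8 to 1899 ± 82.5, log2 0.30, SE 0.09, limma adjusted p = 0.021). In limma's test 0 fell (against 17.0%), with 2 lower at an unadjusted p of 0.05. The median log2 change was 0.19. Sun1 did not pass with the trend removed (adjusted p = 0.102). Without WT1 3 were higher, without KO8 2, without WT4 0, and without WT3 1 was higher and 2 lower. The list holds 3 other central element genes, which were picked out once their values had been seen. For Six6os1 and Tex12, WT1 and KO7 were the highest libraries of their groups and stood well above the rest, as for Sycp1, whereas Syce3 did not have this pattern. Six6os1 (listed as 4930447C04Rik) held 510, 196 and 213 in WT1, WT3 and WT4 and 286, 559 and 259 in KO5, KO7 and KO8 (adjusted p = 0.527). Tex12 held 140, 58.7 and 75.9 in wild type and 67.4, 169 and 70.8 in knockout (adjusted p = 0.83). Syce3 held 47.2, 14.1 and 48.4 in wild type, with WT4 highest, and 22.5, 25.8 and 19.3 in knockout (adjusted p = 0.413).

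Cohesin of dividing cells and its regulators gave 14 higher of 19 tested and 0 lower in limma's test (1 lower at an unadjusted p of 0.05), against 17.3% and 17.0% of all genes. The median log2 change was 0.51. Pds5a, which regulates the release of cohesin, rose 3.13-fold, from 280 ± 76.3 to 876 ± 97.8. Nipbl, the cohesin loader, rose 2.15-fold, and Smc3, a core subunit, rose 1.70-fold. Sgol2, protector of centromeric cohesin, rose 1.69-fold, and Pds5b and Wapal, the releasing factor, rose 1.51-fold and 1.5-fold. Adjusted p-values of these 6 lay between 0.000744 and 0.00288. Taking out the trend left 4 higher and 1 lower (against 6.07% and 6.64% of all genes), with a median of 0.07. Pds5a (log2 1.10), Nipbl (0.52) and Smc3 (0.32) were among those higher, while Pds5b, Sgol2 and Wapal did not pass. Without WT4 the number higher was 9.

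Regulators of meiotic entry and brakes on it gave 1 higher and 3 lower of 18 tested, against 17.3% and 17.0% of all genes. The median log2 change was -0.33, over a list of genes that act for entry and genes that act against it. Cyp26b1, which degrades retinoic acid in the fetal testis, rose from 2673 ± 686 to 3986 ± 571 (log2 0.60, SE 0.17, limma adjusted p = 0.0223; 0.62, adjusted p = 0.0267, with the trend removed). WT1 was the lowest library at 1979 and KO8 the highest at 4637. Aldh1a2, which makes retinoic acid, fell from 3906 ± 221 to 3018 ± 204 (adjusted p = 0.00967). Rnf114 and the retinoic acid receptor Rarg fell 1.27-fold and 1.24-fold. These 3 did not pass with the trend removed (adjusted p from 0.0691 to 0.672). In that setting 2 genes were higher and 1 lower, against 6.07% and 6.64% of all genes. Beside Cyp26b1 these were Dmrt1, a testis transcription factor, which was higher (log2 0.41, adjusted p = 0.0403), and the growth factor gene Fgf9, which was lower (log2 -0.54, adjusted p = 0.0153). Both are named after their values were seen, and neither passed before the trend was taken out (0.17 and 0.333). The number lower was 5 without WT3, 1 without WT4 and 1 without KO5, and 0 were higher without WT4 or without KO8. Stra8, the retinoic acid target that starts meiosis, was below the filter, with 44.2 in WT1 and 3.47 to 11.2 in the other libraries. Nanos2, which keeps male germ cells out of meiosis, held 798 in WT1 and 37.4 to 108 in the others (adjusted p = 0.417).

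The list called repressors here gathered genes that silence meiotic promoters through non-canonical Polycomb and DNA methylation, and also the demethylation genes Tet1 and Tet2. It gave 10 higher and 2 lower of 23 tested, against 17.3% and 17.0% of all genes, with Tet1 and Tet2 among the 10. The median log2 change was 0.25. Mga, which binds the E-box with Max, rose from 1332 ± 124 to 2274 ± 296 (log2 0.77, SE 0.11, limma adjusted p = 0.00185). Rybp, a Polycomb subunit, rose 2.32-fold, Tfdp1, the partner of E2F factors, 1.62-fold, and Cbx3, a heterochromatin protein, 1.59-fold. Tet1 and Tet2, which oxidise methylated cytosine and so act against methylation, rose 1.94-fold and 2.0-fold. Ring1 fell 1.26-fold and Hdac1 1.31-fold, named after their values were seen, and without WT3, WT4 or KO7 0 genes of the list were lower. With the trend removed, 4 were higher and 0 lower in limma's test, against 6.07% and 6.64% of all genes (7 higher and 0 lower at an unadjusted p of 0.05), and the 4 were Rybp, Tfdp1, Cbx3 and Tet2. E2f6, the repressor known to silence Smc1b and Stag3 outside the germ line, held 1698 ± 74.5 and 1515 ± 53.8 (log2 -0.16, SE 0.08, adjusted p = 0.152). Its wild-type values ran from 1614 to 1755 and its knockout values from 1475 to 1576, with no overlap.

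**Figure D5:**
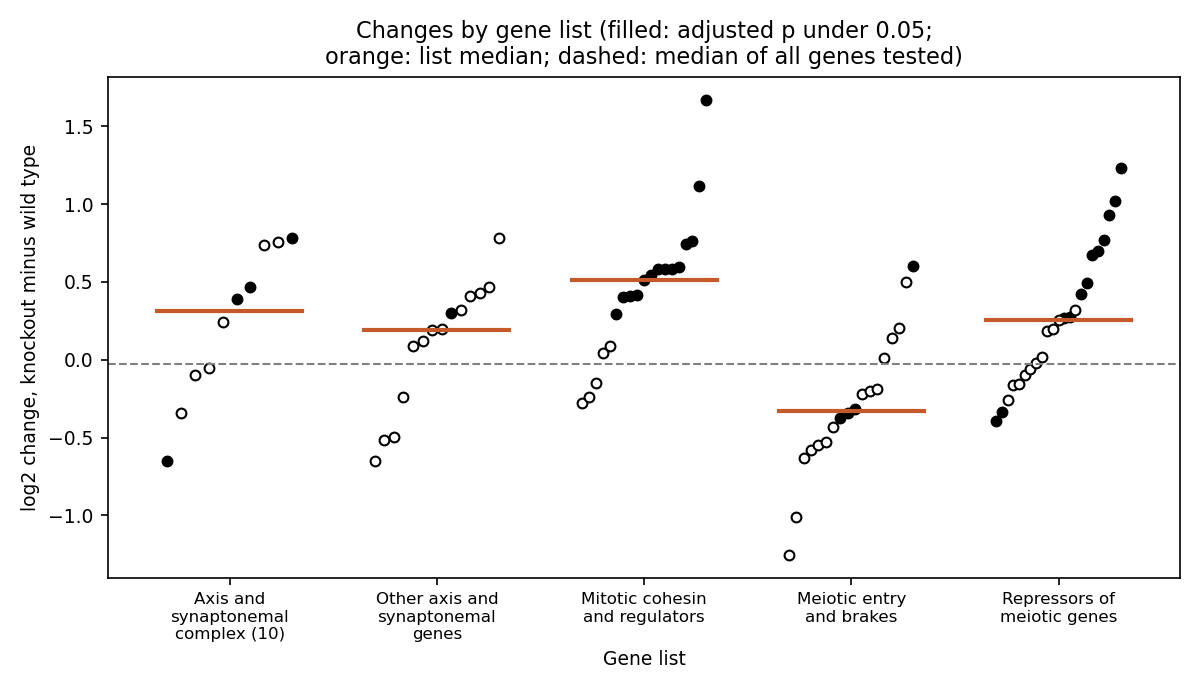
Change of each tested gene in knockout against wild type (log2), by gene list, filled where the adjusted p was under 0.05, with each list's median in orange and the median of all 15116 genes tested dashed at -0.03. List medians were 0.31 for the 10 axis and synaptonemal complex genes, 0.19 for other genes of these structures and 0.51 for mitotic cohesin. They were -0.33 for meiotic entry genes and brakes, and 0.25 for repressors, a list that also holds Tet1 and Tet2.

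Genes whose log2 values followed a member most closely over the 6 libraries, among genes with a mean of at least 100, had smaller ratios of highest to lowest value than that member. For Sycp3 they were Fam3c, Irgm1 and Ctgf, with Pearson's r of 0.985, 0.985 and 0.982. Fam3c ran from 1675 to 2091, a smaller ratio than that of Sycp3, which ran from 140 to 385. For Hormad1 they were Shcbp1, Plaa and Ofd1 (r = 0.998, 0.994 and 0.992), and for Rec8 Susd2, Gpr89 and Emilin2 (r = 0.992, 0.990 and 0.989). These coefficients are the highest over all genes compared in only 6 libraries, are given as descriptions, and share the libraries and their normalisation.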

How the data were processed

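RNA sequencing of 3 wild-type and 3 knockout libraries was analysed. The authors deposited a signal per gene, upper-quartile normalised pseudo-counts, which are fractional. CASAVA 1.8.2, edgeR 2.6.2 and the build mm9 are named per the submitters' processing notes; the aligner, the annotation and what each tool did: not given in the sources used here. Sequencing depth is unknown, which leaves counting error out of reach, and count models were not used. All value columns matched a library by name (0 unmatched).

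After adding 1, log2 values were tested in R 4.3.3 using limma 3.58.1 (mean-dependent prior, two-sided), a scale that understates changes of low genes. The 15116 genes that reached 10 in 3 or more libraries were fitted together, with a threshold of 0.05 on the adjusted p. Figures used matplotlib 3.10.9 in Python 3.11.15. Length and GC content came from each gene's longest protein-coding transcript in GENCODE vM21, matched by NCBI gene number for 95.6% of tested genes. The trend on both was removed in each library by natural splines with 4 degrees of freedom, leaving 14449 genes. Scripts were tested on simulated data.

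Members and lists were chosen with earlier results of these data known. Named were all 10 members, both targeted genes, paralogs, up to 6 genes past the threshold by smallest p from each list, a preset set of germ cell and meiotic regulators, and the 3 genes most like Sycp3, Hormad1 and Rec8. Alternatives were other pseudocounts, filters, scalings and priors, removal of the trend, centring on germ cell markers, and each library left out. Leaving out WT1 and KO7 together, and removing the trend without KO7, were added after the data were seen.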

Additional observations from a re-analysis of the deposited data

How the results depend on the processing

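No paired analysis was possible because no replicate number occurs in both groups. The cause of the changes below was not tested. With pseudocounts of 0.5, 5 and 10, no filter and scaling by the median of ratios, calls of all 10 members were as reported. Leaving out 1 library gave 0 to 5 members higher and 0 to 2 lower, and 1635 to 2495 genes higher and 1397 to 2546 lower over all genes. The counts ranged over 0 to 3 higher and 0 to 2 lower for other axis genes, 9 to 14 and 0 to 1 for mitotic cohesin, 0 to 1 and 1 to 5 for meiotic entry, and 7 to 11 and 0 to 2 for repressors.

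With the length and GC trend removed, 1 member was higher and 0 lower (877 and 959 over all genes), and the lists had 0 higher for other axis genes, 4 higher and 1 lower for mitotic cohesin, 2 and 1 for meiotic entry, and 4 and 0 for repressors. With WT1 also left out, 1 member was higher and 0 lower (842 and 881 over all genes), with 0 other axis genes and 3 mitotic cohesin genes higher and 4 repressors higher and 1 lower. With KO7 left out in place of WT1, 0 members passed (547 and 672 over all genes), with 0 other axis genes higher, 3 mitotic cohesin genes higher, 0 meiotic entry genes higher and 1 lower, and 3 repressors higher and 0 lower. Log2 changes then turned sign for Smc1b (-0.046), Sycp1 (-0.16) and Sycp2 (-0.077).

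Centred on germ cell markers, 0 members passed (99 and 19 over all genes, whose median change went from -0.03 to 0.10), with 0 other axis genes, 1 mitotic cohesin gene, 0 meiotic entry genes and 0 repressors higher and 0 meiotic entry genes and 0 repressors lower. With no mean-dependent prior, 0 members were higher (3 at an unadjusted p of 0.05), 0 meiotic entry genes higher and 0 repressors lower. With both WT1 and KO7 left out, 5 members were higher, 1 mitotic cohesin gene lower and 1 repressor lower. With the filter at 50, 2 members were lower. Scaling to equal totals moved the median of all genes to 0.07 and gave 1690 genes lower, with 2 other axis genes higher, 2 meiotic entry genes higher and 1 lower, and 0 repressors lower; quantile normalisation gave 2 other axis genes higher.

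Syce1 turned sign with equal totals (0.0026), trend removal (0.16, 0.17 without WT1 and 0.080 without KO7), germ cell centring (0.033) and without KO8 (0.019, in a leave-one-out range of -0.20 to 0.019). Sycp3 turned with equal totals (0.049), trend removal without WT1 (0.22), germ cell centring (0.080), and without WT1 (0.31), KO5 (0.049) or KO8 (0.26), in a leave-one-out range of -0.47 to 0.31. Neither was past the threshold in any of these.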
